A study of Mus musculus with 16 samples.

Results

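Matrix metalloproteinases are zinc-dependent enzymes that cut collagens, basement membrane proteins and other extracellular proteins, and tissue inhibitors of metalloproteinases (TIMPs) bind and block them. Described here are 10 of these genes in mouse footpad epidermis: the collagenases *Mmp8* and *Mmp13*, the stromelysins *Mmp3* and *Mmp10*, the gelatinases *Mmp2* and *Mmp9*, the membrane-type *Mmp14*, and the inhibitors *Timp1*, *Timp2* and *Timp3*. They were taken from the 50600 Ensembl identifiers of the deposited count table by gene symbol, each symbol fitting 1 identifier. All 10 had at least 10 counts in total, as did 22155 genes of the table.

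The libraries came from epidermal cells of 16 female C57/B6J mice, with 4 mice in each of 4 groups and 1 library per mouse. From 5 wk of age the mice ate for 3 wk either the purified diet AIN-93M, which holds few ligands of the aryl hydrocarbon receptor (AhR-poor diet), or that diet with 200 ppm of indole-3-carbinol, a precursor of such ligands (I3C diet). The footpad received 50 μl of PBS alone (vehicle) or PBS with 50 μg of papain, a plant protease with which allergy is modelled. Epidermis was parted from dermis with dispase, and its cells were collected 6 hr after the injection. Mice of one diet shared a cage, so diet and cage cannot be told apart. The comparisons ask how each gene responded to papain on each diet, and how it differed between diets with and without papain.

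Secreted metalloproteinases are made as inactive proenzymes and are switched on by removal of a propeptide, often by plasmin or by another metalloproteinase. In skin, keratinocytes at a wound edge are known to make *Mmp3*, *Mmp9*, *Mmp10* and *Mmp13*, neutrophils carry *Mmp8* and *Mmp9* protein in granules, and fibroblasts are a common source of *Mmp2*, *Mmp14* and the TIMPs. *Mmp14* at the cell surface activates the *Mmp2* proenzyme with *Timp2* as a bridge, and *Timp3* binds to the matrix itself. Transcription of several of these genes is known to respond to AP-1, the dimers of Fos and Jun proteins.

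*Mmp13*, *Mmp3*, *Mmp10* and *Mmp8* lie in this order on the plus strand of chromosome 9, within 296.0 kb from 7272514 to 7568485 (GENCODE M21, GRCm38). *Mmp2* lies on chromosome 8, *Mmp9* on chromosome 2, *Mmp14* on chromosome 14, *Timp2* on chromosome 11 and *Timp3* on chromosome 10. *Timp1*, on chromosome X, sits in introns of *Syn1* on the opposite strand. *Timp3* shares 1733 exonic bases with *Syn3* on the opposite strand, and the strand setting of the counting is not given in the sources used here, so its counts may hold reads of *Syn3*. The 250 bases before the RefSeq start (GRCm38.p6, the same build) were read for 8 of the 10 genes, and *Mmp2* and *Mmp9* had no entry. The windows of the 3 genes that held the AP-1 letters TGAGTCA or, on the other strand, TGACTCA are shown with those letters in capitals, beside that of *Timp1*, which rose on both diets and had no match. All 4 genes are on the plus strand, and the windows are chr9:7272264-7272513 for *Mmp13*, chr9:7445572-7445821 for *Mmp3*, chr9:7502092-7502341 for *Mmp10* and chrX:20869916-20870165 for *Timp1*.
Mmp13: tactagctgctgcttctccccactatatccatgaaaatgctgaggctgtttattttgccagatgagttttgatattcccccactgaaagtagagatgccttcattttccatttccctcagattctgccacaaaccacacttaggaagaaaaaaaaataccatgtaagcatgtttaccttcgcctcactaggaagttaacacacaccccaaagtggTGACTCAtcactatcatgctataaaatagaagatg
Mmp3: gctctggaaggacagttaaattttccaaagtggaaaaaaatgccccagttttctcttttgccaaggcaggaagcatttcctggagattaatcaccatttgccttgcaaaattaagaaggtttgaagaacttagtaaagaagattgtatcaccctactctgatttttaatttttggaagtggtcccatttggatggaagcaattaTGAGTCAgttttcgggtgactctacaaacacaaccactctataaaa
Mmp10: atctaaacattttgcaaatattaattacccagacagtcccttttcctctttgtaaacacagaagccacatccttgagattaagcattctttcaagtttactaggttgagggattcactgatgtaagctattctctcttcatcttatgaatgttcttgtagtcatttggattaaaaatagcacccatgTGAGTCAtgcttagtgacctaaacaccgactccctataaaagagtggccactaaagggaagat
Timp1: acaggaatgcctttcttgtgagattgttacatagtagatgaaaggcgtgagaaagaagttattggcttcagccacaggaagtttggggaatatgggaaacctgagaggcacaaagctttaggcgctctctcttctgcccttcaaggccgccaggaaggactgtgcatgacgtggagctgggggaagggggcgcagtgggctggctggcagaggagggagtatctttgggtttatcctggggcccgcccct

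The AP-1 letters began 35 bases before the start in *Mmp13* (read on the minus strand), 46 bases before it in *Mmp3* and 63 bases before it in *Mmp10*. Of all 32851 windows of this length in the RefSeq table, 4.46% held them on either strand. The letters AGGAAG, the core of the PEA3 element bound by Ets factors, were found in *Mmp8*, *Mmp13* (2 matches), *Mmp3*, *Mmp14*, *Timp1* (2 matches) and *Timp3*, and in 29.5% of all windows. The core bound by AhR with its partner, GCGTG, was found in *Timp1*, *Timp2* and *Timp3*, and in 28.2% of all windows. A match describes the letters of the window and not a bound site. Only these exact letters within 250 bases were read, so a window without a match, as that of *Timp1* for AP-1, is not shown to lack a site.

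**Figure D1:**
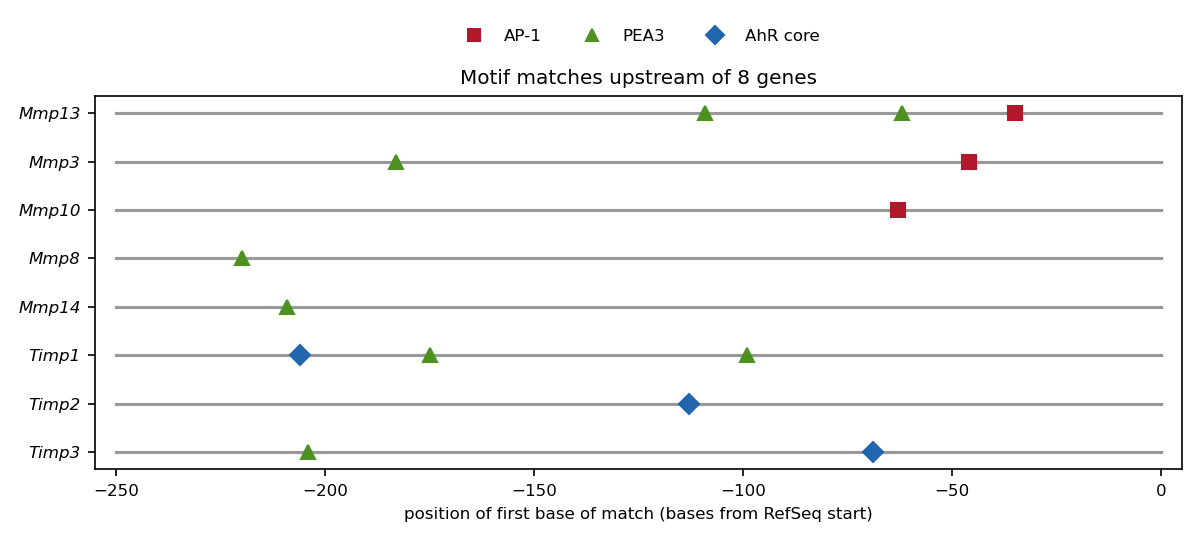
Positions of motif matches in the 250 bases before the RefSeq start of 8 genes, with the start at 0 on the horizontal axis in bases. Each symbol is the first base of a match on either strand. The AP-1 letters lie within 63 bases of the start in *Mmp13*, *Mmp3* and *Mmp10* and are absent from the other 5 windows.

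Library totals ranged from 22500821 to 51844375 counts. Levels are CPM (counts scaled by library total and TMM factor), given as mean ± SD over 4 mice unless single mice are listed. The floor of detection was set at 3 counts in a library, which equals 0.0569 to 0.130 CPM. A gene was called differentially expressed at an adjusted p below 0.01 in edgeR's quasi-likelihood test with a log2 fold change above 1 or below -1, the study's own thresholds. All 15 keratinocyte markers were over the floor in every group, and summed to 65900 to 73600 CPM (I3C diet, vehicle), 60000 to 67400 (I3C diet, papain), 61100 to 75000 (AhR-poor diet, vehicle) and 47300 to 62900 CPM (AhR-poor diet, papain). *Krt15* was called lower with papain on both diets (-1.38 and -1.93 in AhR-poor and I3C mice, adjusted p = 1.13e-05 and 2.37e-07). Between diets after papain, 5 of the 15 had an adjusted p below 0.01 with a change under the fold threshold: *Dsp* (-0.62), *Dsc3* (-0.58), *Itga6* (-0.47), *Trp63* (-0.39) and *Krt15* (0.80). Their part in the results was not tested. Markers of other cells differed between groups. The 15 markers of dermal fibroblasts summed to 88.8 to 113.6 CPM (I3C diet, vehicle), 170.4 to 181.2 (I3C diet, papain), 196.1 to 294.2 (AhR-poor diet, vehicle) and 497.9 to 963.3 CPM (AhR-poor diet, papain). In these sums, which are not scaled for gene length, *Thy1* alone held 77.7% and 89.5% on the I3C diet (80.5 ± 11.4 and 156.7 ± 6.77 CPM), and without it the 4 ranges were 21.1 to 25.3, 12.1 to 26.7, 124.6 to 217.5 and 321.0 to 793.0 CPM. The 16 neutrophil markers summed to 111.6 to 163.3, 169.0 to 179.8, 111.8 to 160.2 and 191.8 to 520.2 CPM in the same order. *Hcar2* alone held 99.4%, 85.1%, 98.0% and 50.8% of these, and without it the ranges were 0.632 to 0.991, 20.9 to 29.9, 2.53 to 3.04 and 54.1 to 306.0 CPM, the I3C papain range being mostly *Cxcr2* (24.2 ± 4.25 CPM). Only *Cxcr2* and *Hcar2* of these were over the floor in the I3C vehicle group, and *Ly6g*, the defining neutrophil marker, had no count in 3 groups and 1.81 ± 1.08 CPM on the AhR-poor diet after papain. In bulk samples, fewer cells of a type and less RNA per cell cannot be told apart. Values are given without mouse T108, the highest I3C vehicle mouse for *Mmp13*, *Mmp3*, *Mmp10*, *Timp1* and *Timp3*, and mouse T112, the lowest AhR-poor papain mouse for several genes, where they change a call. They were not the only mice at the edge of a group, T113, T104 and T100 among them, and every mouse was also left out in turn. Each replicate is 1 animal, so p-values measure the spread between mice. As mice of one diet shared a cage and were not randomized, p-values between diets do not measure the spread between cages.

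Papain on the AhR-poor diet was followed by higher levels of 6 of the 10 genes and lower levels of 0, where 6.04% of all genes tested were called higher and 2.42% lower. The 6 were *Timp1*, *Mmp8*, *Mmp13*, *Mmp3*, *Mmp10* and *Mmp9*. Another 3 genes, *Mmp2*, *Mmp14* and *Timp3*, had negative changes at an unadjusted p below 0.05 that did not reach the fold threshold, as 20.3% of all genes had a negative change at that p, and DESeq2 called 0 of the 10 lower against 2.38% of all genes. On the I3C diet papain was followed by higher levels of 4 genes (*Mmp13*, *Mmp3*, *Mmp9* and *Timp1*), against 3.69% of all genes, and by lower levels of *Mmp2* and *Timp3*, against 5.29%. The median log2 fold change over the 10 genes was 2.06 on the AhR-poor diet and, with *Mmp8* at its lower bound, 0.34 on the I3C diet, beside medians of -0.00 and -0.04 over all genes tested. With mice T108 and T112 left out, a choice made after seeing the data, the AhR-poor response held 6 genes called higher and 0 lower (against 6.74% and 2.44% of all genes), and the I3C response 4 higher and 1 lower (3.75% and 4.86%), *Timp3* no longer being called. The AhR-poor count of 6 fell to 4 when every gene with at least 1 count was tested (against 4.51% of those genes), and ranged from 4 to 6 with single mice left out (against 5.19% to 6.59%), *Mmp10* and *Mmp9* being the genes lost.

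Between diets, *Timp2* was called in both settings and *Timp1* and *Mmp8* after papain. With vehicle, only *Timp2* was called higher on the AhR-poor diet, where 1.59% of all genes were called higher and 0% lower. No gene of the 10 was called lower on the AhR-poor diet with vehicle in edgeR, although 2 (*Mmp3* and *Mmp10*) had an unadjusted p below 0.05 in that direction and DESeq2 called 1. Across the table, 784 genes (3.54%) had such a p in that direction and DESeq2 called 6 (0.0271%). With papain, the AhR-poor mice had higher levels of *Mmp8*, *Timp1* and *Timp2*, against 7.15% of all genes, and 0 of the 10 were lower, against 0.0993% of all genes. None of the 10 was lower at an unadjusted p below 0.05 or in DESeq2, against 14.5% and 0.149% of all genes. Without T108 and T112, *Timp2* was not called with vehicle (log2 fold change 1.45, adjusted p = 0.0149), and *Mmp9* joined the 3 genes higher with papain (1.26, adjusted p = 0.00809). Of all genes, 1.08% were then called higher with vehicle and 7.68% with papain. The interaction, which tests whether the papain response itself differed between diets, called 0 of the 10 genes in edgeR, against 0.0181% of all genes. Of the 10, 6 had a positive interaction at an unadjusted p below 0.05, against 7.41% of all genes, and DESeq2 called 2, *Timp1* and *Timp2*, against 0.903%.

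**Figure D2:**
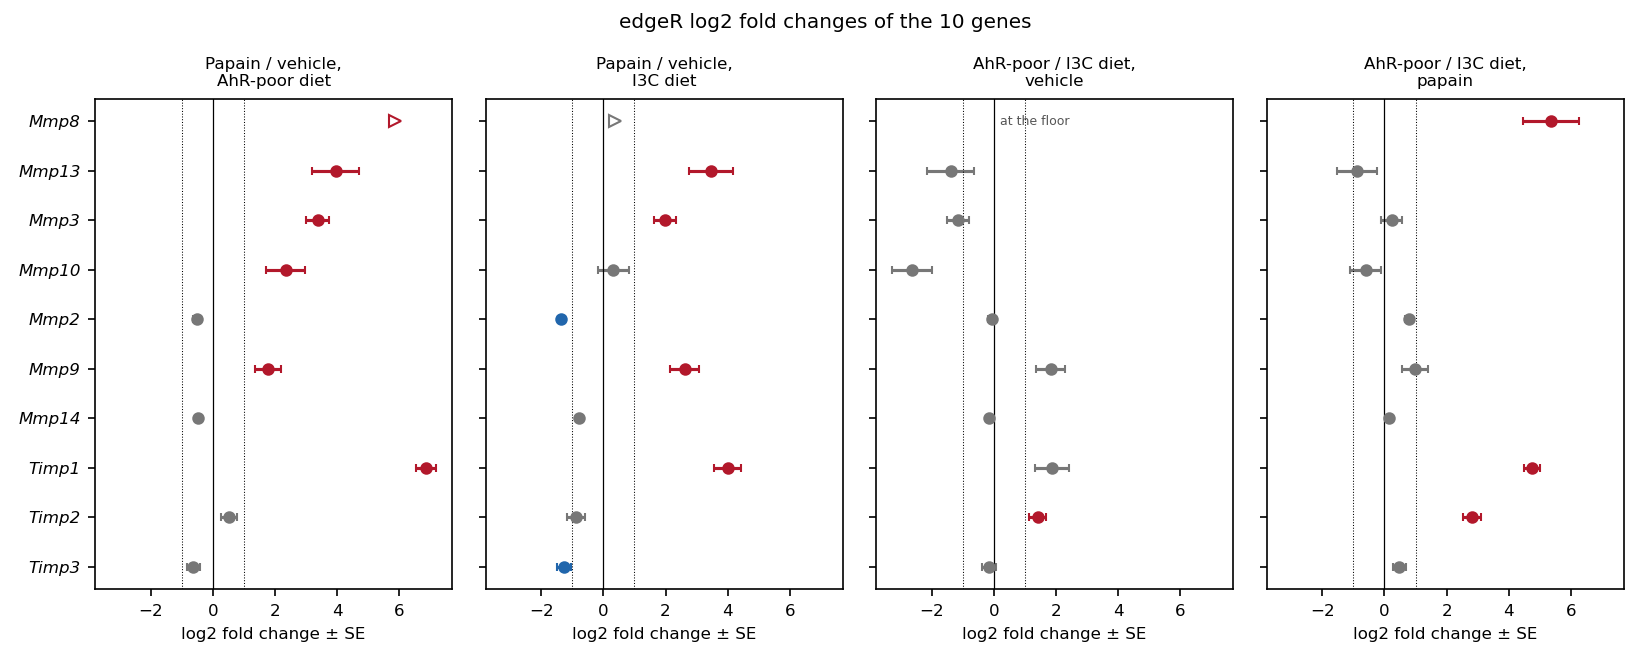
Log2 fold changes of the 10 genes in 4 comparisons from edgeR, with SE as bars and dotted lines at 1 and -1. Red marks genes called higher, blue genes called lower and grey genes not called, and open triangles are lower bounds for *Mmp8*, whose vehicle groups were at the floor. The AhR-poor papain response holds 6 red symbols and the I3C response 4 red and 2 blue.

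*Timp1*, which blocks most secreted metalloproteinases, had the largest responses of the 3 inhibitors. With vehicle it measured 0.115, 0.102, 0.0816 and 0.0900 CPM in the 4 mice on the I3C diet, from 3 or 4 counts each, and 0.300, 0.371, 0.470 and 0.322 CPM on the AhR-poor diet. After papain it measured 2.09, 1.54, 1.63 and 1.14 CPM on the I3C diet, and 42.0, 65, 43.5 and 22.1 CPM on the AhR-poor diet. None of the 4 groups overlapped with another, and the lowest mouse on the AhR-poor diet after papain (T112) was still above all mice of the other groups. *Timp1* rose 118-fold with papain on the AhR-poor diet (log2 fold change 6.86 ± 0.32 SE, adjusted p = 6.1e-10) and 16.5-fold on the I3C diet (4.0 ± 0.44, adjusted p = 2.05e-06). Papain-treated mice of the AhR-poor diet exceeded those of the I3C diet 26.9-fold (4.75 ± 0.27, adjusted p = 4.21e-08). With vehicle the difference of 1.88 ± 0.55 did not pass (adjusted p = 0.0882), nor did the interaction of 2.86 ± 0.76 (adjusted p = 0.124), so the sizes of its responses on the 2 diets were not shown to differ by edgeR. Both passed in DESeq2 (adjusted p = 0.00501 and 0.000262) and in edgeR without T112 (adjusted p = 0.00611 and 0.00573). Of 16 edgeR fits with 1 mouse left out, only that one gained these calls (adjusted p up to 0.213 and 0.269 in the others). Neither passed in edgeR without T108 and T112 together (adjusted p = 0.0203 and 0.0273).

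*Timp2*, which inhibits metalloproteinases and also takes part in the activation of the *Mmp2* proenzyme, was called between diets in both settings. It measured 11.5, 11.1, 11.8 and 8.37 CPM on the I3C diet with vehicle, and 42.9, 26.8, 22.9 and 21.5 CPM on the AhR-poor diet. After papain it measured 8.62, 4.94, 5.88 and 3.56 CPM on the I3C diet, and 45.7, 48.6, 40.3 and 27.2 CPM on the AhR-poor diet. All 8 mice on the AhR-poor diet were above all 8 on the I3C diet. The difference was 2.67-fold with vehicle (1.41 ± 0.27, adjusted p = 0.00744) and 7.04-fold with papain (2.81 ± 0.29, adjusted p = 9.66e-06). The vehicle call was lost without any 1 of T100, T101, T104, T107, T108, T109, T110, T111, T113 and T114, with adjusted p up to 0.0344 and log2 fold changes from 1.15 to 1.45. Neither papain response passed, at 0.51 ± 0.26 on the AhR-poor diet (adjusted p = 0.158) and -0.89 ± 0.28 on the I3C diet (adjusted p = 0.0216), but the latter was called without T106 (-1.17, adjusted p = 0.00355). Their difference of 1.40 ± 0.38 did not pass in edgeR (adjusted p = 0.145) and passed in DESeq2 (1.42, adjusted p = 0.00669).

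*Timp3*, the TIMP held in the matrix, was called lower after papain on the I3C diet. It measured 211.1, 113.5, 108.1 and 79.3 CPM with vehicle on the I3C diet and 55.7, 50.6, 52.7 and 53.8 CPM after papain. On the AhR-poor diet it measured 145.3, 107.1, 103.8 and 104.5 CPM with vehicle and 74.9, 77.5, 73.2 and 72.3 CPM after papain. The papain groups were narrow and did not overlap with each other or with vehicle, whereas T108 (211.1 CPM) and T100 (145.3 CPM) stood above the other vehicle mice. *Timp3* fell 2.41-fold on the I3C diet (-1.27 ± 0.22, adjusted p = 0.000334), and without T108 the change was -0.92 and no longer past the fold threshold. The AhR-poor change was -0.63 ± 0.22 (adjusted p = 0.037). The diets differed by -0.15 ± 0.22 with vehicle (0.20 without T108) and by 0.48 ± 0.22 with papain (adjusted p = 0.871 and 0.139).

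*Mmp8*, the collagenase stored in neutrophil granules, was at or near the floor in all groups but one. It had no count in any vehicle mouse on the I3C diet, and 1, 2, 3 and 1 counts in those on the AhR-poor diet. After papain it had 10, 5, 1 and 0 counts on the I3C diet, and 139, 425, 152 and 17 counts on the AhR-poor diet, where it measured 3.42, 8.06, 6.58 and 0.462 CPM. The lowest of these, T112, was above the highest mouse of any other group (0.244 CPM). *Mmp8* was at least 58.7-fold higher after papain on the AhR-poor diet (44.2-fold without T105, the highest mouse), the floor of 3 counts per library standing for vehicle (adjusted p = 0.000361). Between diets after papain it was 42.8-fold higher on the AhR-poor one (5.37 ± 0.90, adjusted p = 0.00139), and the log2 fold change was 6.26 without T106, which held 10 of the 16 counts on the I3C diet. That call was missed with the 8 papain libraries fitted alone (adjusted p = 0.0102). The I3C papain mice overlapped with vehicle at 0, and the change was not called by edgeR (adjusted p = 0.153), whereas DESeq2 called it (adjusted p = 0.00845). Neutrophil markers moved with *Mmp8*. Of the 14 tested, 10 were called higher with papain on the AhR-poor diet and 2 on the I3C diet (against 6.04% and 3.69% of all genes). Between diets after papain, 9 were called higher on the AhR-poor one (against 7.15%). Within the AhR-poor papain group, T105 was highest and T112 lowest in both *Mmp8* and the summed neutrophil markers, with *Hcar2* or without it, and the part of these markers in the result was not tested.

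*Mmp13*, the collagenase made by many stromal and epithelial cells, rose with papain on both diets. It measured 2.53, 1.77, 2.15 and 1.74 CPM with vehicle on the AhR-poor diet and 69.0, 11.7, 31.3 and 15.9 CPM after papain. In the I3C mice it measured 13.5, 3.14, 1.33 and 3.78 CPM with vehicle and 39.4, 109.9, 47.7 and 40.2 CPM after papain. Mice differed widely, T108 being the highest vehicle mouse and T113 the highest after papain, yet papain and vehicle did not overlap on either diet. *Mmp13* rose 15.6-fold on the AhR-poor diet (3.96 ± 0.76, adjusted p = 0.00124) and 10.9-fold on the I3C diet (3.45 ± 0.71, adjusted p = 0.00179). Single mice moved both sizes, to 3.24 without T104 on the AhR-poor diet and to 4.43 without T108 on the I3C diet. The diets differed by -1.40 ± 0.76 with vehicle (-0.42 without T108) and by -0.89 ± 0.64 with papain (adjusted p = 0.514 and 0.382), the latter ranging from -1.63 without T104 to -0.40 without T113, and their mice overlapped. The interaction was 0.51 ± 0.99 (adjusted p = 0.866) and changed sign without T104 (-0.23) or T108 (-0.47), so these data set no direction for it. The order of mice differed from that of *Mmp8*: T105, the highest for *Mmp8* and for neutrophil and fibroblast markers, was the lowest for *Mmp13* among the AhR-poor papain mice. The part of these markers in the levels of *Mmp13* was not tested.

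*Mmp3*, a stromelysin that cuts matrix proteins and activates other proenzymes, rose on both diets. It measured 6.81, 5.56, 4.48 and 4.64 CPM with vehicle on the AhR-poor diet and 75.5, 49.8, 62.7 and 34.3 CPM after papain. Mice of the I3C diet measured 21.5, 10.6, 5.52 and 10.4 CPM with vehicle and 40.4, 63.2, 43.6 and 41.6 CPM after papain. Papain and vehicle mice did not overlap on either diet, while the 2 papain groups did. *Mmp3* rose 10.3-fold on the AhR-poor diet (3.37 ± 0.37, adjusted p = 1.17e-05) and 3.94-fold on the I3C diet (1.98 ± 0.35, adjusted p = 0.000458). The diets differed by -1.16 ± 0.36 with vehicle (adjusted p = 0.132; -0.72 without T108) and by 0.23 ± 0.33 with papain (adjusted p = 0.691). The interaction of 1.39 ± 0.49 did not pass (adjusted p = 0.256).

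*Mmp10*, the second stromelysin, had few counts. It measured 0.136, 0.212, 0.148 and 0.0805 CPM with vehicle on the AhR-poor diet, from 3 to 8 counts, and 1.58, 0.398, 0.563 and 0.435 CPM after papain. In the I3C mice it measured 2.12, 0.663, 0.245 and 0.660 CPM with vehicle and 1.1, 1.41, 1.14 and 0.945 CPM after papain. The I3C vehicle mouse T108 was above every papain mouse of its diet, and T104 was far above the other 3 AhR-poor papain mice. *Mmp10* rose 5.15-fold on the AhR-poor diet (2.34 ± 0.63, adjusted p = 0.00812), a call lost without any of 9 single libraries, T104 moving it most (1.64, adjusted p = 0.0446). The change on the I3C diet was 0.31 ± 0.50 (adjusted p = 0.682) and 1.13 without T108. With vehicle the AhR-poor mice lay below all I3C mice, a difference of -2.64 ± 0.63 that did not pass (adjusted p = 0.0237) and was -1.83 without T108 (adjusted p = 0.103). It passed in DESeq2 (-2.68, adjusted p = 0.000516) and in edgeR without T104 or T110 (adjusted p = 0.00667 and 0.00645). With papain the difference was -0.61 ± 0.51 (adjusted p = 0.455; -1.34 without T104), and the interaction was 2.03 ± 0.81 (adjusted p = 0.299; 1.22 without T108).

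**Figure D3:**
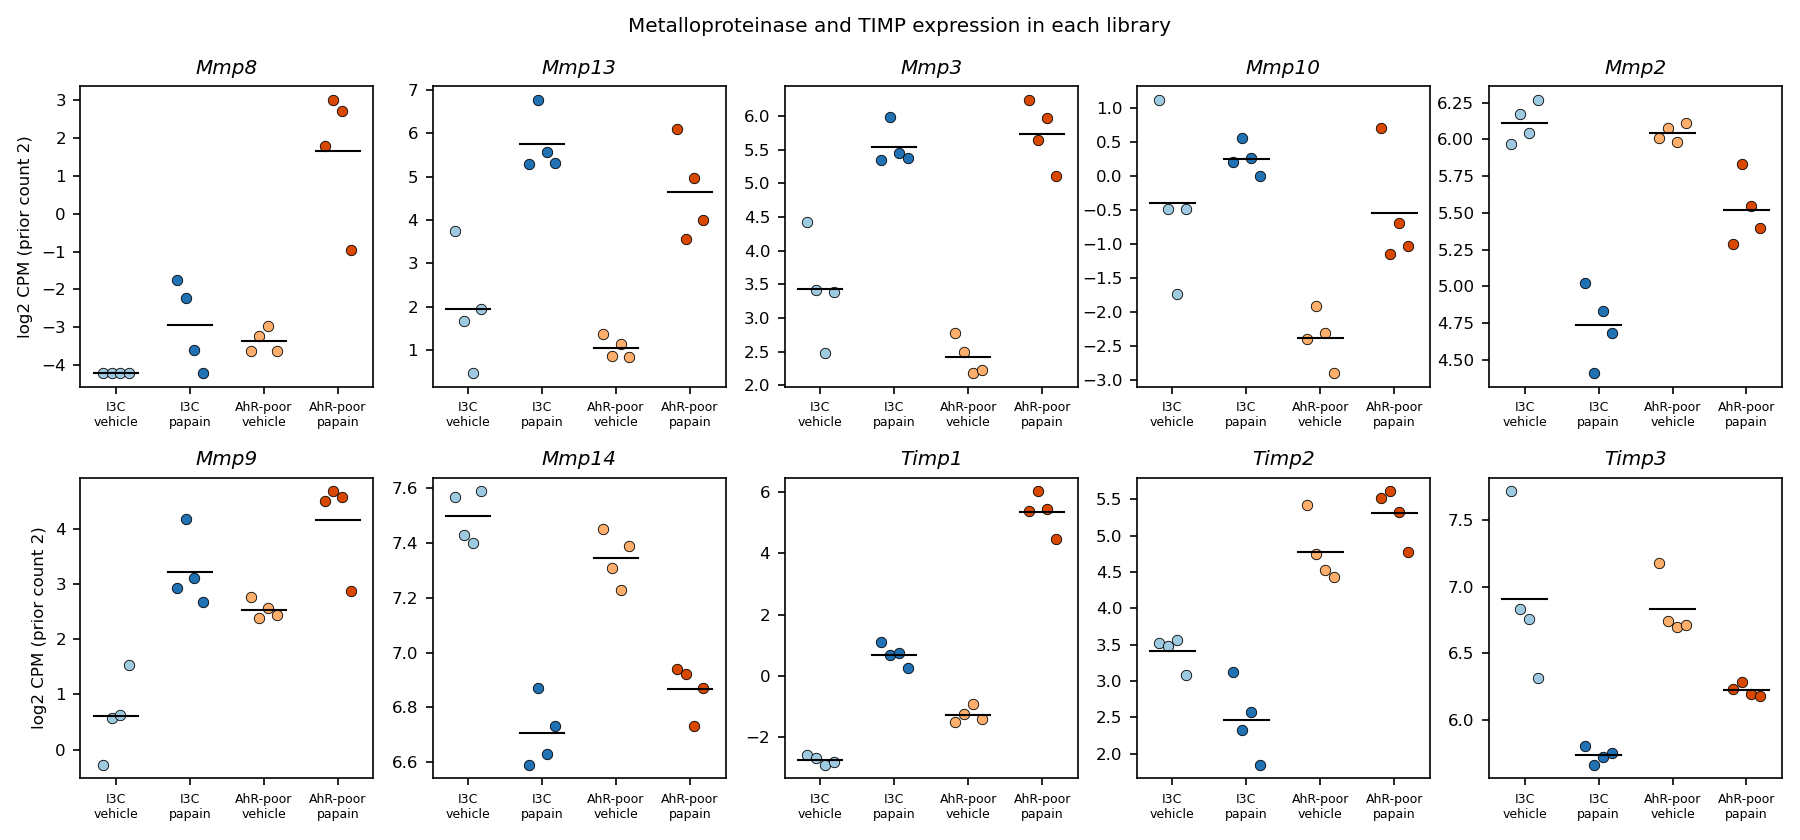
Log2 CPM (prior count 2) of the 10 genes in each of the 16 libraries, with 1 point per mouse and a line at the group mean. Panels have their own vertical scales. *Timp1* separates all 4 groups, *Timp2* separates the diets, and *Mmp13* and *Mmp3* separate papain from vehicle on both diets.

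*Mmp9*, the gelatinase of neutrophils and of migrating keratinocytes, rose with papain on both diets. It measured 0.775, 1.43, 1.5 and 2.85 CPM with vehicle on the I3C diet and 7.58, 17.9, 8.59 and 6.34 CPM after papain. AhR-poor mice had 6.78, 5.14, 5.86 and 5.39 CPM with vehicle and 22.8, 25.6, 23.7 and 7.23 CPM after papain. The papain mouse T112 was close to the vehicle range of its diet, and all vehicle mice on the AhR-poor diet were above those on the I3C diet. *Mmp9* rose 6.17-fold on the I3C diet (2.62 ± 0.46, adjusted p = 0.000421) and 3.43-fold on the AhR-poor diet (1.78 ± 0.42, adjusted p = 0.00454). The second call was lost without any of 7 single libraries (adjusted p up to 0.0183), and without T112 the change was 2.05. The diets differed by 1.83 ± 0.46 with vehicle (adjusted p = 0.0472) and by 0.98 ± 0.41 with papain (adjusted p = 0.112), neither of which passed. The vehicle difference passed in DESeq2 (adjusted p = 0.00263), and in edgeR with only the vehicle libraries fitted or without T112 (adjusted p = 0.00302 and 0.00822). The interaction was -0.85 ± 0.61 (adjusted p = 0.58).

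*Mmp2*, the gelatinase expressed by many unstimulated tissues, fell with papain on the I3C diet. It measured 62.5, 71.8, 66.0 and 77.2 CPM with vehicle on the I3C diet and 32.5, 21.1, 28.5 and 25.5 CPM after papain. AhR-poor mice had 64.4, 67.7, 63.2 and 69.1 CPM with vehicle and 39.2, 56.8, 46.7 and 42.2 CPM after papain. The vehicle mice of both diets overlapped, and all papain mice on the AhR-poor diet lay between them and the papain mice on the I3C diet. *Mmp2* fell 2.58-fold on the I3C diet (-1.36 ± 0.12, adjusted p = 8.89e-08). The AhR-poor change of -0.52 ± 0.12 passed the p threshold but not the fold threshold (adjusted p = 0.00238), as did the diet difference of 0.78 ± 0.12 with papain (adjusted p = 0.000138). With vehicle the diets differed by -0.07 ± 0.12 (adjusted p = 0.905). The interaction of 0.85 ± 0.17 had an adjusted p of 0.0399 in edgeR, the smallest of the 10 genes in that test and above the threshold of 0.01. DESeq2 gave 0.87 with an adjusted p of 0.000671, past the p threshold but not the fold threshold.

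*Mmp14*, the membrane-type enzyme that activates the *Mmp2* proenzyme, was not called in any comparison. It measured 190.5, 172.3, 168.4 and 192.2 CPM with vehicle on the I3C diet and 96.6, 117.3, 98.8 and 106.3 CPM after papain. AhR-poor mice had 174.5, 158.9, 150.6 and 167.6 CPM with vehicle and 122.7, 121.2, 106.2 and 116.6 CPM after papain. Papain mice lay below vehicle mice on both diets, and the diets overlapped. The changes were -0.79 ± 0.08 on the I3C diet (adjusted p = 2.58e-07) and -0.48 ± 0.08 on the AhR-poor diet (adjusted p = 8.69e-05), both short of the fold threshold. The diets differed by -0.15 ± 0.08 with vehicle and by 0.16 ± 0.08 with papain (adjusted p = 0.453 and 0.173). The interaction was 0.31 ± 0.11 (adjusted p = 0.247).

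Because exon lengths differ between genes, the shares of the family's summed level are given as CPM per kb of exon. The length is that of all annotated exons of a gene joined, whichever transcript was made. It was 5.96 kb over 7 transcripts for *Mmp14* and 1.801 kb over 1 for *Mmp3*. The shares and the order depend on that choice. Without scaling for length, *Mmp14* was above *Mmp3* after papain (104.7 against 47.2 CPM on the I3C diet, 116.7 against 55.6 CPM on the AhR-poor diet). With vehicle, *Mmp14* held 50.3% ± 3.29 of the summed level of the 7 metalloproteinases on the I3C diet and 52.1% ± 0.92 on the AhR-poor diet, and *Mmp2* held 34.3% ± 5.0 and 37.4% ± 1.86. After papain *Mmp3* held the largest mean share, 34.0% ± 1.12 on the I3C diet and 36.2% ± 3.53 on the AhR-poor diet. *Mmp13* then held 27.2% ± 7.37 and 13.1% ± 7.78, against 3.13% ± 2.85 and 1.46% ± 0.253 with vehicle. The summed level of the 7 was 60.6 ± 7.29 (I3C, vehicle), 77.5 ± 20.5 (I3C, papain), 52.4 ± 2.56 (AhR-poor, vehicle) and 84.0 ± 20.3 CPM per kb (AhR-poor, papain).

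The summed level of the inhibitors, in CPM per kb, was 18.6 ± 7.29 with vehicle and 9.81 ± 1.15 after papain on the I3C diet, and 21.9 ± 4.93 with vehicle and 68.1 ± 22.2 after papain on the AhR-poor diet. *Timp3* held 83.5% ± 3.99 of it on the I3C diet and 65.2% ± 3.20 on the AhR-poor diet with vehicle, and 67.1% ± 6.20 and 14.6% ± 5.05 after papain. *Timp1* held 0.633% ± 0.171 and 1.97% ± 0.657 with vehicle, and 18.2% ± 2.54 and 69.7% ± 6.61 after papain. These sums and shares are descriptions and were not tested. They rest on joined exon lengths of 0.888 kb for *Timp1* and 8.144 kb for *Timp3*.

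**Figure D4:**
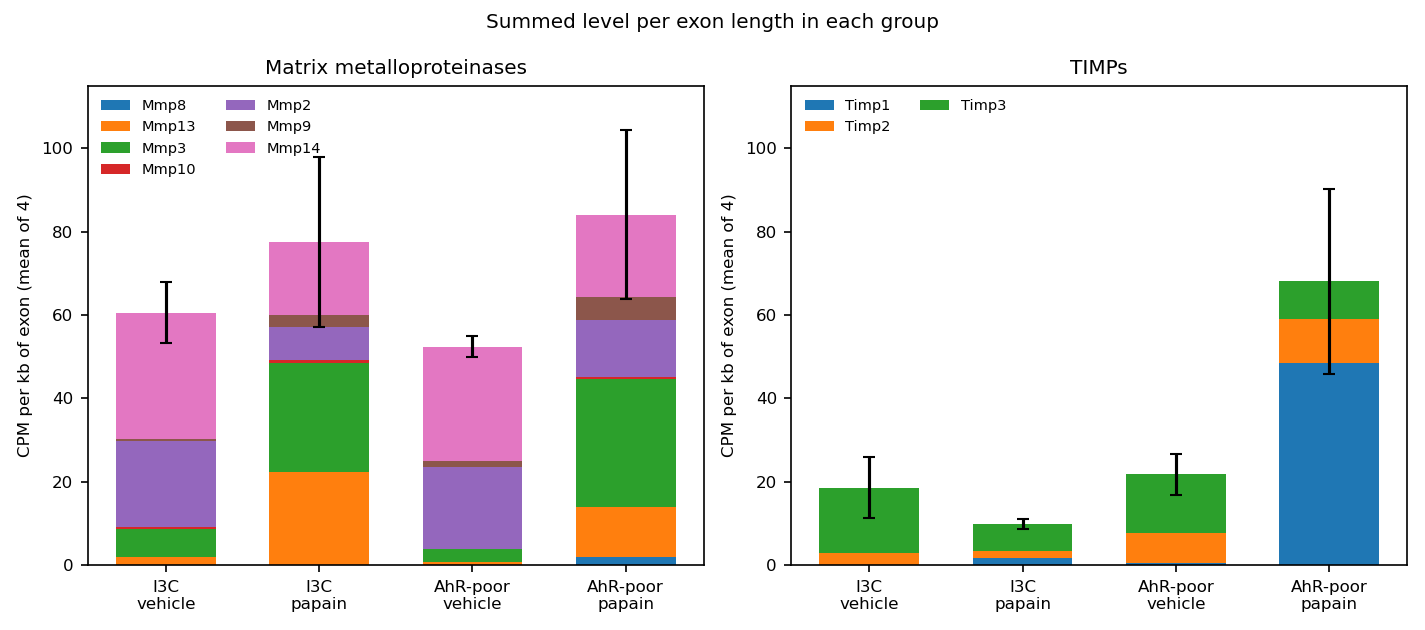
Stacked mean levels in CPM per kb of exon, with the 7 metalloproteinases at left and the 3 TIMPs at right, for 4 groups of 4 mice; bars start at 0 and error bars are the SD of the sum. *Mmp14* and *Mmp2* make up most of the vehicle bars, and *Timp1* most of the TIMP bar on the AhR-poor diet after papain.

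The order of the 10 genes by level per kb of joined exons shifted with papain. With vehicle, *Mmp14* came first on both diets (30.3 ± 2.06 CPM per kb on the I3C diet and 27.3 ± 1.74 on the AhR-poor diet), without overlap with *Mmp2* in second place (20.6 ± 1.92 and 19.6 ± 0.828). *Timp3* came next, overlapping with *Mmp2* on the I3C diet only. After papain on the I3C diet the first 3 were *Mmp3* (26.2 ± 5.97), *Mmp13* (22.2 ± 12.7) and *Mmp14* (17.6 ± 1.57), and neighbours among them overlapped. After papain on the AhR-poor diet *Timp1* came first (48.6 ± 19.7) and overlapped with *Mmp3* (30.8 ± 9.79), which overlapped with *Mmp14* (19.6 ± 1.26). *Timp1* had been ninth and eighth with vehicle. *Mmp8* was last in each group except the AhR-poor papain group, where *Mmp10* was last and overlapped with it.

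Mean levels of *Timp1*, *Timp2*, *Mmp8*, *Mmp9* and *Mmp3* were highest on the AhR-poor diet after papain, although *Mmp9* and *Mmp3* were not called between diets there. Of 15 fibroblast markers, 14 were called higher with papain on the AhR-poor diet (against 6.04% of all genes), and 1 (*Dcn*) was called lower on the I3C diet (5.29%). Between diets, 12 were called higher on the AhR-poor one with vehicle and 13 with papain (1.59% and 7.15%). *Col1a1*, a defining fibroblast gene, measured 1.43 ± 0.395 and 1.25 ± 0.846 CPM on the I3C diet without and with papain, and 24.4 ± 5.63 and 88.9 ± 33.3 CPM on the AhR-poor diet. The 15 markers of monocytes and macrophages summed to 20.3 to 29.4, 13.3 to 48.0, 56.8 to 72.1 and 141.2 to 615.3 CPM in the order I3C vehicle, I3C papain, AhR-poor vehicle and AhR-poor papain. The 10 endothelial markers summed to 3.22 to 4.97, 3.88 to 5.42, 18.7 to 48.1 and 31.3 to 76.1 CPM in that order. *Cd14* held 43.9% of the monocyte and macrophage sum in AhR-poor mice after papain, and without it the ranges were 19.3 to 28.4, 11.7 to 38.6, 54.0 to 68.7 and 99.2 to 328.9 CPM. The 7 markers of Langerhans cells, the resident dendritic cells of the epidermis, summed to 352.0 to 636.5, 376.0 to 791.8, 866.7 to 977.2 and 936.6 to 1170 CPM in that order, and the 8 T cell markers to 13.2 to 20.3, 10.1 to 30.5, 18.5 to 30.9 and 21.4 to 57.8 CPM. Of 9 markers of pericytes and smooth muscle, *Des*, *Abcc9*, *Rgs5*, *Kcnj8* and *Tagln* were called between diets after papain, with log2 fold changes from 2.71 (*Tagln*) to 5.63 (*Des*) and mean levels of at most 2.94 CPM, while *Notch3*, at 155.1 CPM in AhR-poor and 253.8 CPM in I3C mice, held most of their sum. T112 was the lowest AhR-poor papain mouse for *Timp1*, *Timp2*, *Timp3*, *Mmp3*, *Mmp8* and *Mmp9* and for the fibroblast, neutrophil, monocyte, Langerhans and T cell sums, but not for the endothelial sum (45.0 CPM, against 31.3 CPM in T107). The part of these cells in the results was not tested.

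**Figure D5:**
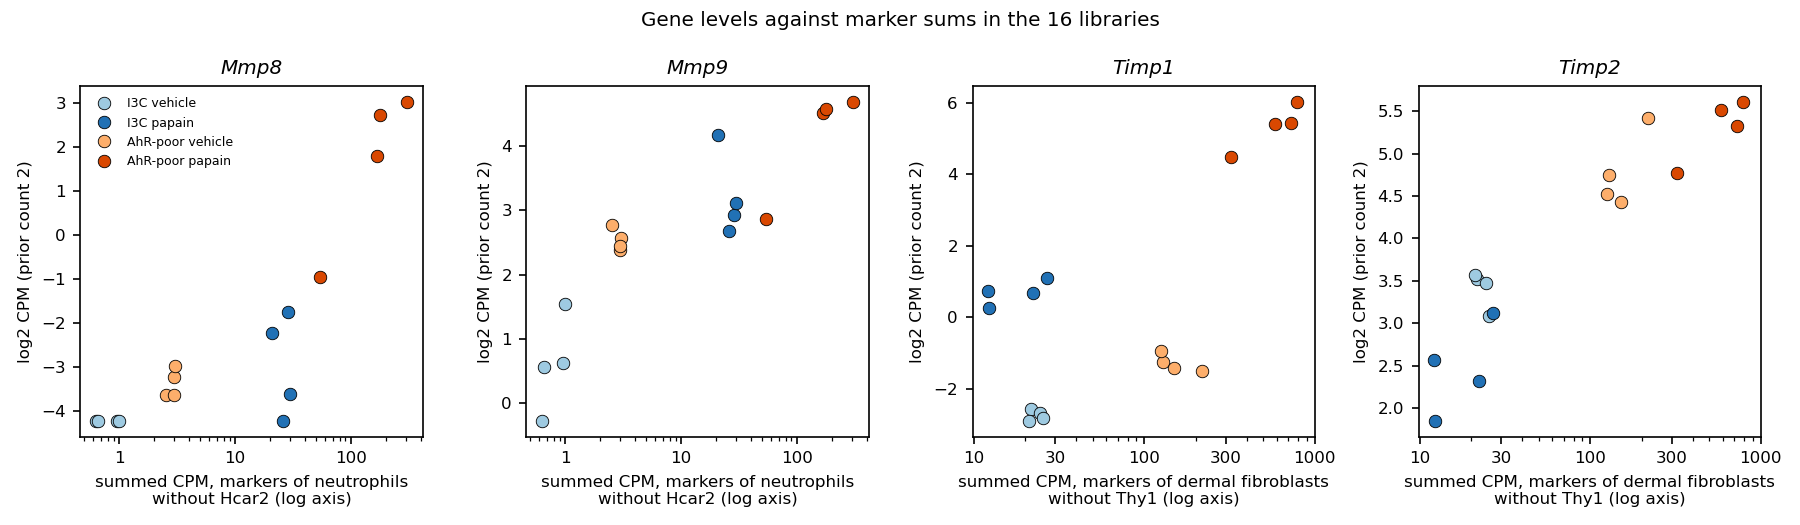
Log2 CPM of *Mmp8* and *Mmp9* against the summed CPM of the neutrophil markers other than *Hcar2*, and of *Timp1* and *Timp2* against that of the dermal fibroblast markers other than *Thy1*, in the 16 libraries (horizontal axes are logarithmic). Among the AhR-poor papain mice, the one with the lowest marker sums (T112) is also lowest on the vertical axis of each panel.

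Other genes of the pathway were taken from a list of 76, of which 71 were tested. Papain on the AhR-poor diet was followed by higher levels of 25 (35.2%) and lower levels of 1 (1.41%), where 6.04% and 2.42% of all genes tested were called, and on the I3C diet by higher levels of 10 (14.1%) and lower levels of 4 (5.63%), where 3.69% and 5.29% were called. Between diets, 4 (5.63%) were called higher on the AhR-poor one with vehicle and 24 (33.8%) with papain, beside 1.59% and 7.15% of all genes. The share lowered on the I3C diet was close to that of all genes. The same shares of all genes stand beside the counts of the separate lists.

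Among 16 other metalloproteinases (14 tested), 5 rose with papain on the AhR-poor diet and 1 rose and 2 fell on the I3C diet. *Mmp19*, a secreted enzyme that cuts basement membrane proteins, rose on the AhR-poor diet from 1.07 ± 0.429 to 17.8 ± 11.1 CPM (4.06 ± 0.55, adjusted p = 5.43e-05). The I3C mice had 0.770 ± 0.436 and 1.42 ± 0.831 CPM without and with papain, which was not called (adjusted p = 0.277). *Mmp1b* rose on both diets, by 3.91 ± 0.44 (adjusted p = 2.27e-06) and 3.45 ± 0.41 (adjusted p = 1.96e-06). *Mmp12*, the macrophage elastase, rose on the AhR-poor diet (2.71 ± 0.52, adjusted p = 0.000551), and its I3C change of 1.15 ± 0.50 was not called (adjusted p = 0.0859). *Mmp11* and *Mmp17* fell on the I3C diet (log2 fold changes -1.71 and -1.31, adjusted p = 0.00777 and 0.00317). After papain *Mmp19* (3.66 ± 0.54), *Mmp11* (1.99 ± 0.47) and *Mmp25* (1.62 ± 0.33), a membrane-anchored enzyme of neutrophils, were the 3 called higher on the AhR-poor diet.

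Of 4 other inhibitors (3 tested), *Reck*, a membrane-anchored inhibitor, was higher on the AhR-poor diet with vehicle (0.837 ± 0.254 against 0.170 ± 0.112 CPM, adjusted p = 0.004) and with papain (1.49 ± 0.429 against 0.152 ± 0.114 CPM, adjusted p = 2.31e-05). *Tfpi2* rose with papain on the AhR-poor diet from 0.0989 ± 0.0470 to 0.450 ± 0.214 CPM (2.19 ± 0.51, adjusted p = 0.00248). Its I3C change of 2.05 ± 0.91 was not called (adjusted p = 0.0907), with at most 2 counts with vehicle and 3 after papain. In plasminogen activation, which yields plasmin, 2 of 7 genes tested rose on the AhR-poor diet: the urokinase receptor *Plaur*, from 15.5 ± 2.86 to 66.2 ± 24.2 CPM, and tissue plasminogen activator *Plat*, from 5.25 ± 1.03 to 13 ± 2.93 CPM. The I3C mice had 11.4 ± 4.45 CPM of *Plaur* with vehicle and 19.5 ± 5.26 CPM with papain, which was not called (adjusted p = 0.0796). After papain *Plaur*, *Plat* and *Serpine2*, an inhibitor of plasminogen activators and thrombin, were called higher on the AhR-poor diet (1.77 ± 0.32, 1.06 ± 0.19 and 2.34 ± 0.28).

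Among 10 genes for activation, docking and partners, *Lcn2*, whose protein binds that of *Mmp9*, rose on both diets. It went from 2.55 ± 1.28 to 102.2 ± 8.12 CPM on the AhR-poor diet (5.33 ± 0.28, adjusted p = 9.17e-09) and from 1.51 ± 0.23 to 89.7 ± 19.8 CPM on the I3C diet (5.88 ± 0.29, adjusted p = 2.89e-09). *Cd44*, a cell surface docking protein for *Mmp9*, rose on the I3C diet (1.11 ± 0.10, adjusted p = 1.31e-07), and its AhR-poor change of 0.78 ± 0.10 passed the p threshold only (adjusted p = 1.24e-05). *Tspan4* rose on both diets (1.86 ± 0.17 on the AhR-poor and 1.36 ± 0.18 on the I3C diet). Integrin *Itgb3* rose on the AhR-poor diet (1.68 ± 0.30) and exceeded its I3C level after papain (3.29 ± 0.34, adjusted p = 2.17e-06).

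Of 17 ADAM and ADAMTS proteases tested, 6 rose and 1 fell on the AhR-poor diet, 1 rose and 2 fell on the I3C diet, and between diets 3 with vehicle and 10 with papain were called higher on the AhR-poor one. *Adamts14*, which trims procollagen, fell on both diets, from 85.4 ± 11.8 to 18.1 ± 4.13 CPM (-2.24 ± 0.20, adjusted p = 1.12e-06) and from 92.8 ± 22.6 to 11.9 ± 2.44 CPM (-2.96 ± 0.21, adjusted p = 4.86e-08). *Adam12* (3.93 ± 0.57) and *Adamts4* (2.93 ± 0.38), which cuts aggrecan, rose on the AhR-poor diet, and *Adam8*, found on leukocytes, rose on both diets, by 2.23 ± 0.32 on the AhR-poor (adjusted p = 9.84e-05) and 1.42 ± 0.31 on the I3C diet (adjusted p = 0.00228). With vehicle the 3 higher on the AhR-poor diet were *Adam33* (3.41 ± 0.45, adjusted p = 0.000199), *Adamts4* (2.84 ± 0.53, adjusted p = 0.00393) and the procollagen protease *Adamts2* (2.72 ± 0.43, adjusted p = 0.00108). Their levels were low, at 0.995, 0.719 and 1.52 CPM on the AhR-poor diet and 0.0926, 0.0999 and 0.228 CPM on the I3C diet. The I3C vehicle mice had at most 6, 5 and 11 counts of them.

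Of 20 inducers and transcription factors, 8 rose on the AhR-poor diet and 5 on the I3C diet, and 5 were called higher between diets after papain. The AP-1 subunits *Fos*, *Jun* and *Junb* were not called, as none passed the fold threshold, but the papain change of *Fos* was -0.65 in AhR-poor mice and -0.85 in I3C mice (adjusted p = 0.000609 and 3.32e-05), that of *Jun* -0.48 and -0.70 (adjusted p = 0.0226 and 0.00164), and that of *Junb* -0.38 and -0.84 (adjusted p = 0.0886 and 0.000702). The subunits *Fosl1* and *Fosl2* were not called either. In AhR-poor mice they changed by -0.13 and -0.10 (adjusted p = 0.802 and 0.63), and in I3C mice by -0.67 and -0.39 (adjusted p = 0.129 and 0.036). *Il1b*, the cytokine interleukin-1 beta, measured 2.57 ± 0.557 and 233 ± 152 CPM without and with papain on the AhR-poor diet (6.50 ± 0.74, adjusted p = 2.01e-05), and 0.378 ± 0.267 and 6.15 ± 5.97 CPM on the I3C diet (4.04 ± 0.93, adjusted p = 0.00381). *Osm*, the cytokine oncostatin M, rose on the AhR-poor diet from 0.316 ± 0.0404 to 16.3 ± 10.6 CPM (5.68 ± 0.57, adjusted p = 3.36e-06). On the I3C diet *Osm* measured 0.0719 ± 0.0527 CPM with vehicle, from at most 4 counts, and 0.258 ± 0.269 CPM after papain. That change of 1.89 ± 0.95 was not called (adjusted p = 0.145). *Tgfa* and *Areg*, ligands of the epidermal growth factor receptor, rose on both diets. The changes on the AhR-poor diet were 1.75 ± 0.26 for *Tgfa* (adjusted p = 0.000107) and 1.39 ± 0.20 for *Areg* (adjusted p = 5.19e-05), and those on the I3C diet 2.06 ± 0.26 and 1.27 ± 0.20 (adjusted p = 1.84e-05 and 9.14e-05). *Il1a*, interleukin-1 alpha, rose on the AhR-poor diet (2.35 ± 0.51, adjusted p = 0.00247), and its I3C change of 0.44 ± 0.49 was not called (adjusted p = 0.531). *Il6* after papain was called higher on the AhR-poor diet (1.89 ± 0.41, adjusted p = 0.0045).

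The genes whose log2 CPM ran most like that of each of the 10 were found by Pearson's r over the 16 libraries, which fall into 4 groups, among genes with at least 1 CPM on average. *Timp1* was most like *Rtp4* (r = 0.982), *Ms4a6d* (0.980) and *Trim30a* (0.976). *Timp2* was most like *Cd34* (0.983) and *Mmp8* most like *Srgn* (0.982) and the chemokine receptor gene *Cxcr4* (0.980). *Mmp3* was most like the cytokine gene *Il24* (0.978), and *Mmp13* most like *Tubb6* (0.974), which came second for *Mmp3* (0.970). *Mmp14* and *Mmp2* were most like *Cdh13* (0.978) and *Efemp1* (0.968), and *Timp3* was most like *Pthlh* (0.955). For *Mmp9* the closest were *Sqor* (0.949), *Entpd6* (0.942) and *S100a9* (0.923). *Mmp10* had the least close neighbour, *Nup54* (0.885). These values describe shared patterns over 4 groups of libraries.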

How the data were processed

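Libraries (TruSeq Stranded mRNA, sequenced on 3 units, the unit of each library not given) were aligned by the authors with STAR to mm10. The values analysed are the raw counts per gene that the authors deposited, whole numbers without normalization; the counting tool, annotation release and strand setting are not given in the sources used here. Of 50600 identifiers 50376 matched a symbol in GENCODE M21. The 22155 genes whose counts summed to 10 or more were fitted with edgeR 4.0.16 in R 4.3.3 (TMM factors, 1 mean for each of 4 groups, robust quasi-likelihood F test, Benjamini-Hochberg adjustment over all genes tested). Folds are ratios of mean CPM, and a group with at most 3 counts in every library was set at that floor, which covers counting error only. The study used DESeq2 with these thresholds; DESeq2 1.42.0 was run as an alternative, beside other scalings, filters, thresholds and sets of libraries. The 10 genes, and the pathway and marker lists, were chosen with earlier results of these data known. All 10 genes are named. From the pathway lists at most the 3 largest changes called per list and comparison are named, with the values of those genes in other comparisons. *Fos*, *Jun*, *Junb*, *Fosl1*, *Fosl2* and the markers were named after their values were seen. The fibroblast, neutrophil and monocyte sums are also given without the gene of the highest mean in the list, a choice made after seeing the data. The fitting code was also run on counts simulated from its own fitted dispersions and scored at an adjusted p below 0.05 with no fold threshold. That run checks the code and not how well the model suits mice at the edge of a group. Exon lengths and overlaps come from GENCODE M21, promoters from RefSeq. All samples had a group, and replicates within a group differed by more than counting error.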

Additional observations from a re-analysis of the deposited data

Results flagged for a closer look

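In 40 sets of 4 mice (10 genes in 4 groups), 5 held a mouse whose distance to its nearest neighbour, as a share of the whole range, exceeded Dixon's 95% critical value, which chance does in about 1 in 20 sets. On the I3C diet after papain, T113 had 109.9 CPM of *Mmp13* against 39.4 to 47.7 CPM in the other 3 mice, and 63.2 CPM of *Mmp3* against 40.4 to 43.6 CPM. On the AhR-poor diet after papain, T104 had 1.58 CPM of *Mmp10* against 0.398 to 0.563 CPM, and T112 had 7.23 CPM of *Mmp9* against 22.8 to 25.6 CPM. On the AhR-poor diet with vehicle, T100 had 145.3 CPM of *Timp3* against 103.8 to 107.1 CPM.

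The papain response of *Mmp2* differed between diets by 0.85 on the log2 scale, the level after papain being less reduced on the AhR-poor diet (adjusted p = 0.0399 for the interaction in edgeR). In edgeR it passed at an adjusted p of 0.05 and not at 0.01, and with single mice left out it ranged from 0.73 to 0.97, with an adjusted p up to 0.0955. In DESeq2 it was 0.87 (adjusted p = 0.000671), below 0.01 but short of the fold threshold.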

How the results depend on the processing

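No paired analysis was possible because no code of a mouse recurs in another group. Single genes were checked 1189 times, in refits and under a looser threshold applied to the main fit. Of these checks, 1127 kept direction and call, 33 lost the call, 23 gained it and 6 changed sign. At an adjusted p of 0.05 with no fold threshold, papain lowered 3 genes in AhR-poor mice and 4 in I3C mice (against 15.7% and 18.4% of all genes), the diet comparison with vehicle held 2 higher and 1 lower (2.98% and 0.0993%), and the interaction called 1 higher (0.311%). In DESeq2 that vehicle comparison held 3 higher and 1 lower (2.69% and 0.0271% of all genes), and the interaction called 2 (0.903%). For that vehicle comparison, 0 were higher when every gene with at least 1 count was tested, 2 when only the libraries compared were fitted and 0 without T108 and T112 (against 1.22%, 2.49% and 1.08% of all genes). With single mice left out, the genes called ranged from 4 to 6 higher with papain on the AhR-poor diet (5.19% to 6.59% of all genes; 4 and 4.51% when every gene with at least 1 count was tested), from 1 to 3 lower with papain on the I3C diet (4.35% to 6.06%), from 0 to 3 higher (0.876% to 1.96%) and 0 to 1 lower (0% to 0.00908%) on the AhR-poor diet with vehicle, and from 0 to 1 higher in the interaction (0.00908% to 0.432%). Without T108 and T112, 1 was lower with papain on the I3C diet (4.86%). Changes of sign were seen in 3 results, none of them called: *Mmp10* with papain on the I3C diet (-0.00 to 1.13 with single mice left out), *Timp3* between diets with vehicle (-0.32 to 0.20, and 0.20 without T108 and T112) and the *Mmp13* interaction (-0.47 to 1.01, and -0.25 without T108 and T112). The cause of these differences was not tested. Scaling by library size only moved the median of all genes by 0.10 in the diet comparison after papain. *Mmp8*, *Mmp10* and vehicle *Timp1* rest on few counts, which limits their precision, and 4 mice per group allow an exact permutation p of 0.0286 at the smallest.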
